A study of Mus musculus with 12 samples.

Results

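The Kruppel-like factors described here are 7 genes, Klf2, Klf3, Klf4, Klf5, Klf6, Klf9 and Klf10, out of 39017 genes in the count table. They were listed by name, with earlier results of these data known, and their identifiers in the table were matched to mouse gene symbols. Poly(A) RNA was sequenced from mouse embryonic stem cells (mESCs) of 2 lines in 2 media, which gives 4 groups of 3 libraries labelled as biological replicates. J1 is a wild-type male mESC line. 3B3-3l cells are described as double knockouts of the endogenous Dnmt3a and Dnmt3b genes and carry Dnmt3b and Dnmt3l transgenes under the constitutive CAG promoter, selected as stable transfectants, so that DNA methylation is held up in 2i. Serum medium held 15% fetal calf serum and, according to the sample labels, LIF at 500 U/ml. 2i medium was serum-free N2B27 with the MEK inhibitor PD0325901 at 1 uM, the GSK3 inhibitor CHIR99021 at 3 uM and LIF at 1000 U/ml. In the study's methods both media held LIF at 1000 U/ml, so that the sources disagree on the serum dose. The effects of the inhibitors, the basal medium and the LIF dose cannot be told apart. In serum, J1 cells were kept on feeder cells that were depleted before analysis and 3B3-3l cells on gelatin, so that line and culture surface cannot be told apart in that medium. The study's methods name feeders for J1 in serum only and deplete them before conversion to 2i. Medium and feeder culture therefore cannot be told apart in J1, nor in the differences of 2i effects between the lines.

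Kruppel-like factors are transcription factors that bind GC-rich and CACCC elements through zinc fingers at their carboxyl end. In mESCs, Klf2, Klf4 and Klf5 belong to the network that sustains self-renewal. Klf4 is a reprogramming factor and a target of LIF and STAT3 signalling, and Klf2 is regulated through MEK and ERK. Klf3 is a repressor that recruits CtBP proteins. Klf9 and Klf10 bind the Sin3a corepressor and respond, respectively, to glucocorticoid and thyroid hormone and to TGF-beta, and Klf6 is a broadly expressed member of the family.

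Klf4 was the member that differed most between the media. It was 2.84-fold higher in 2i than in serum in J1 and 2.92-fold higher in 3B3-3l, and these increases did not pass the test of a difference between the lines. Klf2 fell in 2i in J1 and rose in 3B3-3l, where the rise did not pass in several fits with 1 library left out. Klf5 rose in 3B3-3l. Klf9 fell in 2i in both lines. No change of Klf2, Klf3, Klf6 or Klf10 between media exceeded 1.36-fold in either direction.

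The 12 libraries held 37050652 to 44515395 estimated reads, and each member was covered by at least 2361 reads in every library, far above the floor of 3 counts. Levels between libraries are in CPM, reads of a gene relative to the TMM-scaled size of its library. Dnmt3a stood at 165.8 to 167 CPM in J1 in serum and at 29.4 to 34.3 CPM in 3B3-3l in serum, with 38.9 to 44.5 and 4.01 to 5.08 CPM in 2i. It was thus lower in 3B3-3l but not absent, and reads of the disrupted part of the gene were not separated from the rest, so that these values do not check the knockout. Dnmt3b stood at 866 to 936 CPM in 3B3-3l over both media, against 41.0 to 427 CPM in J1, and transgene and endogenous reads were not separated. The summed level of 6 mESC markers was 2863 to 3577 CPM across all libraries. The 14 fibroblast markers summed to 146 to 155 CPM in J1 in serum, 243 to 277.5 in J1 in 2i, 222 to 249 in 3B3-3l in serum and 239 to 252 in 3B3-3l in 2i. Vim, which made up most of the sum, and Thy1 were set aside after the data were seen. The other markers then came to 43.9 to 47.8 CPM in J1 in serum and 24.1 to 25.2 CPM in J1 in 2i. In 3B3-3l they came to 55.8 to 65.3 CPM in serum and 12.0 to 12.9 CPM in 2i. Not every marker kept was lower in 2i: Pdgfrb averaged 6.31 CPM in J1 in serum and 19.45 CPM in J1 in 2i. Lum was at 0 in J1 in serum, and Lum, Dcn and Twist2 were at 0 in 2i in both lines. All markers had reads in 3B3-3l in serum, but Lum had at most 1 read and Fap at most 2 in a library, under the floor of 3 counts. The part of such cells in the levels of the Kruppel-like factors was not tested, and in bulk RNA fewer cells of a type and less RNA per cell cannot be told apart. The J1 2i replicate 3 library lay farthest from its group mean over all genes (root mean square deviation 0.251 on the log2 scale, against 0.203 to 0.239 in the others), and it was the lowest of its group for 5 of the 7 members.

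Levels per length were compared first, as RPKM, the CPM level divided by the effective length of the transcripts in kilobases. Klf2 was the most abundant member in every group, at 221 ± 3.50 RPKM (SD, n = 3, as for all means below) in J1 in serum, 162.8 ± 8.56 in J1 in 2i, 165.9 ± 17.9 in 3B3-3l in serum and 187 ± 4.93 in 3B3-3l in 2i. Klf6 was the least abundant, at 15.1 to 17.4 RPKM in group means. No library of either gene overlapped that of its neighbour in the order.

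The order between these ends depended on the medium. In serum Klf5 came second, at 52.8 ± 0.603 RPKM in J1 and 50.5 ± 2.81 in 3B3-3l. Klf4 was lower than Klf3 in J1, at 37.5 ± 1.76 RPKM with libraries that overlapped those of Klf9, and lower than every member but Klf6 in 3B3-3l, at 29.6 ± 0.90. In 2i Klf4 was second in both lines, at 103.7 ± 4.82 RPKM in J1 and 87.1 ± 2.79 in 3B3-3l, and Klf5 followed at 58.1 ± 6.15 and 78.4 ± 2.74. Klf3, Klf9 and Klf10 lay between 29.8 and 42.8 RPKM throughout, and the libraries of Klf9 and Klf10 overlapped in J1 in 2i, as did those of Klf9 and Klf3 and of Klf3 and Klf10 in 3B3-3l in serum.

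**Figure D1:**
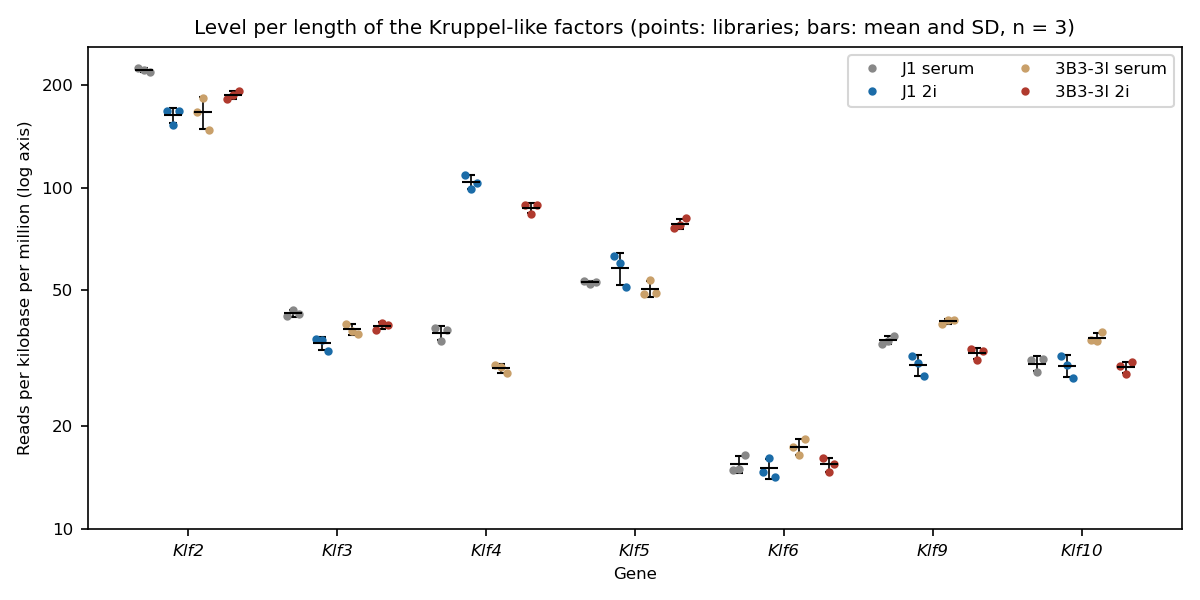
RPKM (log axis) of the 7 genes; points are the 12 libraries, coloured by group, and bars give the group mean and SD of 3 libraries. Klf2 tops every group, and Klf4 moves from 37.5 to 103.7 RPKM in J1 and from 29.6 to 87.1 RPKM in 3B3-3l between serum and 2i.

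As a share of the summed RPKM of the 7 genes, Klf2 took 50.7 ± 0.711% in J1 in serum and 37.4 ± 1.80% in J1 in 2i, 43.7 ± 2.54% in 3B3-3l in serum and 39.8 ± 0.612% in 3B3-3l in 2i. Klf4 took 8.59 ± 0.335% and 23.8 ± 0.50% in J1, and 7.82 ± 0.271% and 18.6 ± 0.494% in 3B3-3l. The ratio of Klf4 to Klf2 per length was 0.170 ± 0.0081 in J1 in serum and 0.637 ± 0.019 in J1 in 2i, and 0.179 ± 0.016 and 0.466 ± 0.020 in 3B3-3l. All 3 libraries of each 2i group therefore had a higher ratio than all serum libraries. The 3 self-renewal members together reached 311 ± 4.56 RPKM in J1 in serum and 325 ± 13.4 in J1 in 2i, where the libraries overlapped, and 246 ± 20.9 and 352 ± 8.32 RPKM in 3B3-3l, where they did not. Over all 17 Kruppel-like factor genes of the table, the 7 members held 83.4 to 85.6% of the summed RPKM.

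Among the self-renewal members, Klf4 (chromosome 4, 55527137 to 55532475 in GRCm38, ENSMUSG00000003032) gave the widest separation of media. In J1 it stood at 102.5, 95.4 and 97.8 CPM in the serum libraries of replicates 1, 2 and 3, and at 283, 277 and 280.5 CPM in those of 2i. In 3B3-3l the corresponding values were 82.5, 81.4 and 78.4 CPM in serum and 239, 232 and 238 CPM in 2i. Every 2i library was higher than every serum library, and within each medium every 3B3-3l library was lower than every J1 library. The log2 fold change in 2i was 1.51 ± 0.04 (standard error, as for all fold changes below; edgeR adjusted p = 1.04e-13) in J1 and 1.55 ± 0.04 (adjusted p = 6.11e-14) in 3B3-3l. The difference of these 2i effects was 0.04 ± 0.06, with a 95% interval of -0.09 to 0.17 and an adjusted p of 0.633. 3B3-3l was lower than J1 by a log2 fold change of -0.29 ± 0.04 in serum (adjusted p = 9.63e-05) and -0.24 ± 0.04 in 2i (adjusted p = 0.000203).

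Klf2 (chromosome 8, 72319062 to 72321654, ENSMUSG00000055148) moved in opposite directions in the 2 lines. J1 libraries held 376, 372 and 365 CPM in serum and 280.4, 254 and 282 CPM in 2i, with no overlap. 3B3-3l libraries held 281, 306 and 245 CPM in serum and 307, 316 and 321.5 CPM in 2i, where the lowest 2i library lay just above the highest serum library. The log2 fold change in 2i was -0.45 ± 0.07 in J1 (edgeR adjusted p = 2.08e-05) and 0.18 ± 0.07 in 3B3-3l (adjusted p = 0.0236), and the difference between them was 0.63 ± 0.09 (adjusted p = 0.000105). The smaller change, in 3B3-3l, no longer passed when 3B3-3l serum replicate 3, the lowest library, was left out (0.10, adjusted p = 0.139), nor without 3B3-3l 2i replicate 2 or 3 (0.16 and 0.17, adjusted p = 0.0986 and 0.0701) or any 1 of the J1 serum libraries (0.16 in each fit, adjusted p = 0.0627 to 0.066). 3B3-3l was lower than J1 in serum (-0.42 ± 0.07, adjusted p = 0.000131) and higher in 2i (0.21 ± 0.07, adjusted p = 0.0169). The last of these did not pass without 3B3-3l 2i replicate 2 (0.18, adjusted p = 0.0774), 3B3-3l 2i replicate 3 (0.19, adjusted p = 0.0584) or J1 2i replicate 2 (0.16, adjusted p = 0.072).

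Klf5 (chromosome 14, 99298691 to 99313412, ENSMUSG00000005148) rose in 2i in 3B3-3l. Its serum libraries held 75.7, 82.8 and 75.5 CPM in 3B3-3l and 82.6, 81.2 and 82.2 CPM in J1. In 2i it stood at 119, 121 and 126 CPM in 3B3-3l and at 97.4, 92.7 and 79.4 CPM in J1. The 3B3-3l 2i libraries lay above all others, while the J1 media overlapped through J1 2i replicate 3. The log2 fold change in 2i was 0.65 ± 0.07 in 3B3-3l (edgeR adjusted p = 2.59e-07) and 0.13 ± 0.07 in J1 (adjusted p = 0.0862), with a difference of 0.51 ± 0.09 between the lines (adjusted p = 0.000495). Without J1 2i replicate 3, the value in J1 was 0.21 with an adjusted p of 0.00215. Between the lines, Klf5 was higher in 3B3-3l in 2i (0.44 ± 0.06, adjusted p = 4.19e-05), and in serum the value was -0.07 ± 0.07 (adjusted p = 0.413).

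**Figure D2:**
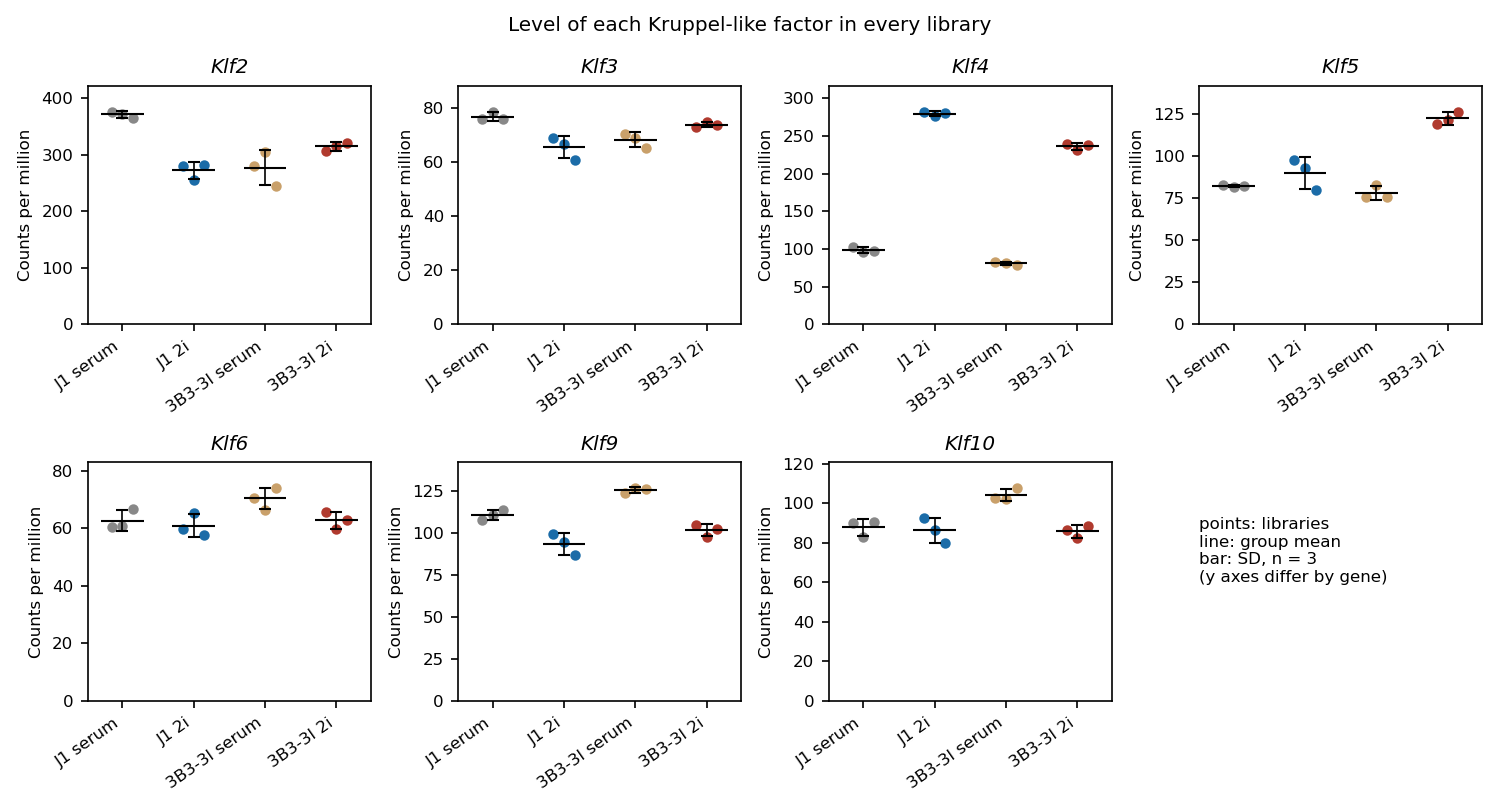
CPM of each of the 7 genes in the 12 libraries, 1 panel per gene with axes that start at 0; points are libraries, lines and bars the mean and SD of 3. Klf4 separates the media in both lines, and the 3B3-3l 2i libraries of Klf5 lie above all others.

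The promoter windows of RefSeq for GRCm38.p6, 250 bases before to 50 bases after each gene start, were available for 5 of the 7 genes and are absent for Klf5 and Klf10. The 250 bases before the start are shown for Klf4, the member with the largest difference between media, and for Klf2, the most abundant member and the one called in opposite directions in the lines. Capitals mark matches to the GC box GGGCGG on either strand, with matches that share a base counted separately, of which Klf4 has 4 and Klf2 has 2.
Klf4 promoter, chr4:55532476-55532725, minus strand: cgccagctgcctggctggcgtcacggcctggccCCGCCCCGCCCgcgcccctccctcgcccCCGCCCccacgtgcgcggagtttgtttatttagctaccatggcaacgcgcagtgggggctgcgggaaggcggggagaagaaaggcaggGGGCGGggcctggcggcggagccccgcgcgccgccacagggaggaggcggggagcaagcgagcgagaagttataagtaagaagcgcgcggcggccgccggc
Klf2 promoter, chr8:72318812-72319061, plus strand: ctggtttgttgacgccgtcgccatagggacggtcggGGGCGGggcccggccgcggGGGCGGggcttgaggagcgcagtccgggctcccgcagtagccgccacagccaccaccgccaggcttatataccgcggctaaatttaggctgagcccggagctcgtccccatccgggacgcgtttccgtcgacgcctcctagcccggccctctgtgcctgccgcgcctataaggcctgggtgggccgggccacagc
Klf3 had 6 matches and Klf6 had 1, Klf9 had none, and 35.7% of the 32851 promoters of the table hold at least 1. All 5 windows were rich in GC, at 74.3% in Klf4, 69.3% in Klf2, 76.7% in Klf3, 63.0% in Klf6 and 63.3% in Klf9, against a median of 52.7% over all promoters. They held 23 to 40 CG pairs each, against a median of 7. Neither form of the Kruppel-like factor motif (CCACACCC in 3.56% and CCACGCCC in 5.33% of all promoters, both strands) nor the TCF/LEF motif CTTTGAT (3.73%) matched any of the 5. The STAT motif TTCNNNGAA matched only Klf9 among the 5, once, and 8.30% of all promoters hold it. These matches describe the letters of the windows and were not tested for binding.

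Klf3 (chromosome 5, 64803521 to 64832901, ENSMUSG00000029178), the CtBP-dependent repressor, differed between the lines in its 2i effect. J1 libraries held 76.0, 78.8 and 76.0 CPM in serum and 68.9, 66.9 and 61.0 CPM in 2i. In 3B3-3l they held 70.7, 69.2 and 65.4 CPM in serum and 73.2, 74.9 and 74.0 CPM in 2i. The groups did not overlap in any of the 4 comparisons of media or lines, which also held for Klf2 and Klf4. The share of all genes without overlap was not counted. Klf3 fell in 2i in J1 (-0.23 ± 0.05, edgeR adjusted p = 0.00105), the value in 3B3-3l was 0.11 ± 0.05 (adjusted p = 0.066), and the difference was 0.34 ± 0.07 (adjusted p = 0.002). The 3B3-3l value passed without 3B3-3l serum replicate 1 (0.14, adjusted p = 0.048) or J1 2i replicate 3 (0.12, adjusted p = 0.0276), and it was 0.04 with transcript length offsets (adjusted p = 0.548) and 0.06 with at least 10 counts in every library (adjusted p = 0.347). It was lower in 3B3-3l in serum (-0.17 ± 0.05, adjusted p = 0.0172) and higher in 2i (0.17 ± 0.05, adjusted p = 0.012). The serum call was lost without 3B3-3l serum replicate 3 (-0.14, adjusted p = 0.0804) or J1 serum replicate 2 (-0.15, adjusted p = 0.0686), and the 2i call without 3B3-3l 2i replicate 2 (0.14, adjusted p = 0.0858).

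Klf3 was also the member whose transcript shares differed with medium. It is represented by the transcripts Klf3-202 of 2314 bases and Klf3-203 of 1562 bases. Per length, Klf3-202 made up 55.35, 52.6 and 52.45% of Klf3 in the J1 serum libraries and 69.6, 66.15 and 58.85% in those of 2i. In 3B3-3l the shares were 49.6, 58.3 and 49.6% in serum and 67.7, 61.0 and 62.75% in 2i. All 2i libraries were higher than all serum libraries in either line, by group means of 64.9 ± 5.48% against 53.5 ± 1.63% in J1 and 63.8 ± 3.46% against 52.5 ± 5.01% in 3B3-3l, and with 3 libraries against 3 an exact permutation test cannot go below p = 0.1. Klf4-001, of 3029 bases, held 90.7 to 95.1% of Klf4 per length in group means, and the other 5 members had 1 transcript each.

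**Figure D3:**
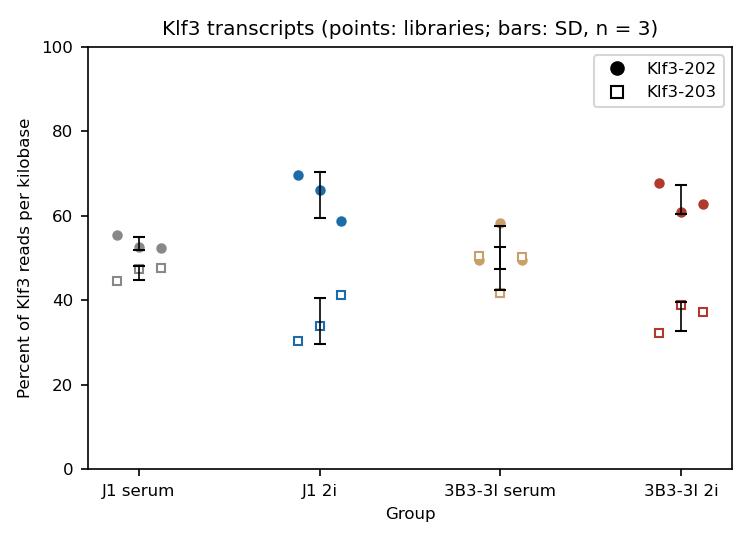
Share of Klf3 reads per kilobase held by its transcripts Klf3-202 (filled circles) and Klf3-203 (open squares) in each library, with SD bars for 3 libraries. The share of Klf3-202 lies at 58.85% or above in all 2i libraries and at 58.3% or below in all serum libraries.

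Klf9 (chromosome 19, 23141226 to 23168129, ENSMUSG00000033863), a hormone-responsive factor, fell in 2i in both lines. Its libraries held 107.5, 110.4 and 114 CPM in J1 in serum and 99.4, 94.2 and 86.7 CPM in J1 in 2i. In 3B3-3l they held 123.5, 127 and 126 CPM in serum and 104.7, 97.5 and 102 CPM in 2i. No serum library was as low as any 2i library of its line. The log2 fold changes were -0.24 ± 0.05 in J1 (edgeR adjusted p = 0.000744) and -0.30 ± 0.05 in 3B3-3l (adjusted p = 9.07e-05), and their difference of -0.06 ± 0.07 had an interval of -0.22 to 0.10 (adjusted p = 0.558). Klf9 was higher in 3B3-3l in serum (0.18 ± 0.05, adjusted p = 0.0123), which did not pass without J1 serum replicate 1 (0.16, adjusted p = 0.0598). In 2i the lines overlapped, and the value was 0.12 ± 0.05 (adjusted p = 0.0756), which passed without J1 2i replicate 1 (0.17, adjusted p = 0.0248).

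Klf10 (chromosome 15, 38291464 to 38300711, ENSMUSG00000037465), the TGF-beta-inducible member, was highest in 3B3-3l in serum. There it stood at 102.8, 102 and 108 CPM, and 3B3-3l libraries in 2i held 86.6, 82.3 and 88.5 CPM. J1 libraries held 89.8, 83.0 and 90.7 CPM in serum and 92.6, 86.5 and 79.8 CPM in 2i. The 3B3-3l serum libraries lay above all others, and the other 3 groups overlapped. Klf10 fell in 2i in 3B3-3l (-0.28 ± 0.06, edgeR adjusted p = 0.000474), the value in J1 was -0.03 ± 0.06 (adjusted p = 0.717), and the difference was -0.25 ± 0.08 (adjusted p = 0.0242). This difference did not pass without 3B3-3l serum replicate 3 (-0.23, adjusted p = 0.0574) or J1 2i replicate 1 (-0.20, adjusted p = 0.0733). Between the lines Klf10 was higher in 3B3-3l in serum (0.25 ± 0.06, adjusted p = 0.00326), and in 2i the value was -0.01 ± 0.06 (adjusted p = 0.925).

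Klf6 (chromosome 13, 5861489 to 5870393, ENSMUSG00000000078) had the lowest levels per length and small differences between media. It stood at 60.5, 60.8 and 66.7 CPM in J1 in serum, and at 59.6, 65.3 and 57.6 CPM in J1 in 2i. The 3B3-3l libraries held 70.6, 66.4 and 74.0 CPM in serum and 65.6, 59.7 and 62.8 CPM in 2i. Groups overlapped in every comparison except that of the media in 3B3-3l. There Klf6 fell in 2i (-0.17 ± 0.06, edgeR adjusted p = 0.0282), and it did not pass without 3B3-3l 2i replicate 2 or 3 or without 3B3-3l serum replicate 1 or 3 (-0.13 to -0.17, adjusted p = 0.058 to 0.116). The value in J1 was -0.04 ± 0.06 (adjusted p = 0.57), and the difference between the lines was -0.12 ± 0.09 (adjusted p = 0.301). In serum Klf6 was higher in 3B3-3l by 0.17 ± 0.06, at an adjusted p of 0.0448. This call was lost under 5 other analyses and when 1 of 7 libraries was left out, namely J1 serum replicate 1 or 2, 3B3-3l serum replicate 1 or 3, 3B3-3l 2i replicate 1 or 3 or J1 2i replicate 1 (0.13 to 0.17, adjusted p = 0.0516 to 0.167). In 2i the value was 0.04 ± 0.06 (adjusted p = 0.608). With the replicate number as a block, the serum value was 0.17 with an adjusted p of 0.0695.

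RefSeq places no other gene over Klf2, Klf4, Klf5 or Klf6. The predicted genes Gm38457 and Gm31684 overlap Klf3, Gm35248 overlaps Klf10, and Mir1192 lies over Klf9. Reads were assigned by strand, so that reads of a same-strand overlap are the ones that could be shared.

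Counted over the 7 members at an adjusted p under 0.05, 1 rose and 3 fell in 2i in J1, where 33.2% of the 17885 genes tested were higher and 32.9% were lower. In 3B3-3l, 3 rose and 3 fell, and 32.7% of all genes were higher and 32.7% lower. Between the lines in serum, 3 members were higher in 3B3-3l and 3 lower, against 21.5% and 17.2% of all genes. In 2i, 3 were higher and 1 was lower, against 23.0% and 22.9%, and these 4 calls became 2 without 3B3-3l 2i replicate 2. The difference of the 2i effects was positive for 3 members and negative for 1, against 16.3% and 18.3% of all genes. The median log2 fold change of the members in these comparisons was -0.04, 0.11, -0.07, 0.12 and 0.04, beside 0.01, 0.01, 0.03, 0.01 and -0.03 over all genes. The comparisons share libraries, so that their counts are not independent of each other.

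**Figure D4:**
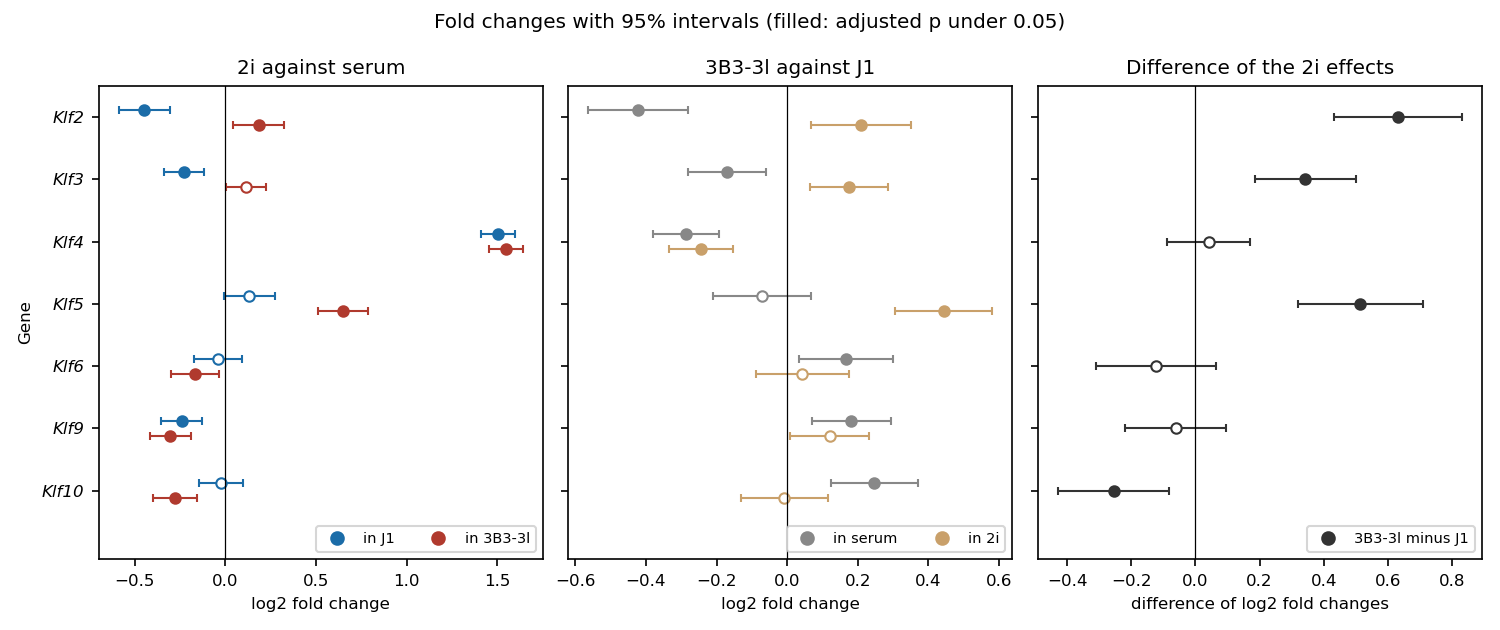
Log2 fold changes of the 7 genes with 95% intervals from the edgeR fit, for 2i against serum, for 3B3-3l against J1, and for the difference of the 2i effects of the lines; filled points passed an adjusted p under 0.05. Klf4 stands at 1.51 and 1.55 in the media comparison, and Klf2, Klf3, Klf5 and Klf10 pass in the difference.

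The other genes of the family were taken as a list of 10. Of these, 3 rose and 4 fell in 2i in J1, and 2 rose and 3 fell in 3B3-3l. For this and the later lists, 33.2% of all genes tested were higher and 32.9% lower in 2i in J1. In 3B3-3l these shares were 32.7% and 32.7%. Between the lines they were 21.5% and 17.2% in serum and 23.0% and 22.9% in 2i, and in the difference 16.3% and 18.3%. No list was tested against these shares. Klf8, a repressor that also recruits CtBP, rose in both lines, with 25.8 ± 1.34 CPM in serum and 60.3 ± 5.98 in 2i in J1 (log2 fold change 1.23 ± 0.07), and 26.4 ± 1.37 and 73.9 ± 4.43 CPM in 3B3-3l (1.48 ± 0.07). Klf7 fell in both (-0.60 ± 0.10 and -0.62 ± 0.09). Klf15 rose in J1 (0.52 ± 0.07) and had a lower 2i effect in 3B3-3l (difference -0.55 ± 0.10, adjusted p = 0.000557). The median of the list was -0.04 in J1 and -0.09 in 3B3-3l. Between the lines, 3 were higher and 2 lower in 3B3-3l in either medium, and in the difference 1 was higher and 1 lower.

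SP factors bind the same GC-rich elements through related zinc fingers. Of the 8 tested out of 9 (Sp9 was not tested), 2 rose and 2 fell in J1 in 2i, and 4 rose and 2 fell in 3B3-3l. Sp5, a target of Wnt and beta-catenin signalling, stood at 1.55 ± 0.011 CPM in serum and 24.0 ± 1.69 in 2i in J1 (3.95 ± 0.10), and at 1.92 ± 0.282 and 16.3 ± 0.744 CPM in 3B3-3l (3.09 ± 0.10). Its 2i effect was lower in 3B3-3l by -0.86 ± 0.15 (edgeR adjusted p = 0.000382). Medians were 0.02 and 0.05 in the media comparisons. Between the lines, 1 was higher and 1 lower in serum, 2 were higher and 3 lower in 2i, and in the difference 2 were higher and 2 lower.

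Among 12 cofactors and ubiquitin ligases of the family, 5 rose and 4 fell in 2i in each line. Ctbp2, a corepressor that Klf3 recruits, stood at 293 ± 6.70 CPM in J1 in serum, 112 ± 1.72 in J1 in 2i, 135.6 ± 2.84 in 3B3-3l in serum and 91.8 ± 2.30 in 3B3-3l in 2i. It fell in both lines (-1.38 ± 0.04 and -0.56 ± 0.04) and was lower in 3B3-3l in serum (-1.11 ± 0.04). Wdr5 rose in both (0.68 ± 0.05 and 0.89 ± 0.05), and Sin3a, the corepressor bound by Klf9 and Klf10, fell in both (-0.30 ± 0.05 and -0.36 ± 0.05). The ubiquitin ligase Wwp1 rose in J1 (0.29 ± 0.08) and fell in 3B3-3l (-0.28 ± 0.08), with a difference of -0.57 ± 0.11. Medians were -0.10 and 0.01. Between the lines 5 were higher and 1 lower in serum and 7 higher and 1 lower in 2i, and in the difference 6 were higher and 2 lower.

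In the LIF and STAT3 list of 12 genes, which holds the pathway upstream of Klf4, 4 rose and 4 fell in 2i in J1, and 5 rose and 4 fell in 3B3-3l (medians -0.07 and 0.08). Stat3 rose in both lines, with 128 ± 5.52 CPM in serum and 194 ± 5.37 in 2i in J1 (0.60 ± 0.05), and 107 ± 0.784 and 175 ± 6.37 CPM in 3B3-3l (0.71 ± 0.05), and the difference of 0.11 ± 0.07 did not pass (adjusted p = 0.222). The STAT3 target and feedback inhibitor Socs3 fell in both lines (-0.49 ± 0.06 and -1.01 ± 0.06), as did Pim3 (-1.21 ± 0.05 and -0.85 ± 0.05). The receptor genes Lifr and Il6st rose in 3B3-3l (0.30 ± 0.08 and 0.36 ± 0.06), with values of -0.08 ± 0.08 and -0.12 ± 0.06 in J1 that did not pass, and the difference passed for both (adjusted p = 0.013 and 0.000817). Lif itself was at 5.01 to 7.06 CPM in group means. Between the lines 4 were higher and 4 lower in serum and 4 higher and 5 lower in 2i, and in the difference 5 were higher and 5 lower.

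The naive pluripotency network, to which Klf2, Klf4 and Klf5 belong, was followed in 11 further genes. In 2i, 6 rose and 4 fell in J1 (median 0.47), and 7 rose and 3 fell in 3B3-3l (median 0.78). Tfcp2l1 (2.30 ± 0.07 and 2.44 ± 0.07), Tbx3 (2.50 ± 0.06 and 2.25 ± 0.06) and Nanog (1.04 ± 0.04 and 0.78 ± 0.04) rose in both lines, as Klf4 did. Sall4 fell in both (-0.93 ± 0.05 and -0.39 ± 0.05). Zfp42 fell in J1 (-0.36 ± 0.06) and rose in 3B3-3l (0.39 ± 0.06), the same directions as Klf2, with a difference of 0.75 ± 0.08 (adjusted p = 6.1e-06). Between the lines 2 were higher and 5 lower in serum, and the 5 that passed in 2i were higher in 3B3-3l. In the difference 6 were higher and 2 lower.

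Of 15 genes of the MEK, ERK and ERK5 list, which holds kinases upstream of Klf2, 3 rose and 7 fell in 2i in each line (medians -0.09 and -0.07). Egr1, an immediate ERK target, fell in both lines, with 99.3 ± 8.82 CPM in serum and 10.7 ± 3.49 in 2i in J1 (-3.22 ± 0.23), and 49.2 ± 1.14 and 1.51 ± 1.23 CPM in 3B3-3l (-5.06 ± 0.30), and Fos fell with it (-2.84 ± 0.13 and -3.07 ± 0.13). The ERK5 gene Mapk7 and its kinase Map2k5 had values of -0.03 ± 0.06 and 0.15 ± 0.08 in J1 and -0.04 ± 0.06 and -0.02 ± 0.07 in 3B3-3l, none of which passed. Between the lines Mapk7 was lower in 3B3-3l (-0.31 ± 0.06 in serum and -0.32 ± 0.06 in 2i), and Map2k5 was higher (0.39 ± 0.08 and 0.23 ± 0.07). Over the list, 5 were higher and 2 lower in serum and 7 higher and 3 lower in 2i, and in the difference 5 were higher and 4 lower.

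Profiles over the 12 libraries were compared as the root mean square difference of log2 CPM, each gene centred on its own mean, among 9272 genes whose mean reached 10 CPM. Closest to Klf4 were Alpl (0.0569) and Tnfrsf21 (0.0785), where Klf4 itself varied by 0.776. For Klf2, which varied by 0.196, they were Cdyl (0.0775) and Nop56 (0.088), and for Klf5, which varied by 0.262, Map4k3 (0.0631) and Cit (0.0679). Klf9, with a variation of 0.165, was closest to Ypel5 (0.0498) and Grpel2 (0.0513), and Klf10, with 0.131, to Asap2 (0.048) and Sall1 (0.0492). Klf3 was closest to Prmt3 (0.0441) and Mrrf (0.0504) and Klf6 to Kdm1b (0.0463) and Zfp236 (0.0565), and these members varied by 0.102 and 0.104.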

How the data were processed

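Stranded poly(A) libraries of 12 mESC samples were quantified by the authors with Sailfish against mm10 transcript models. The deposited gene table holds estimated counts from tximport, and the deposited transcript tables hold TPM and estimated counts. The sequencing pool of each library is not given in the sources used here.

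Counts were rounded and tested with the quasi-likelihood test of edgeR 4.0.16 (R 4.3.3) after filterByExpr (17885 genes kept), with TMM factors of 0.970 to 1.04 and 1 coefficient per group fitted to all 12 libraries. P-values were adjusted by Benjamini-Hochberg across every gene tested, with a threshold of 0.05. The fit was run on simulated counts in which 50 genes per fold were changed in the J1 2i group. It called 70% of the 1.3-fold and 96% of the 1.5-fold changes in the right direction. Far fewer genes were changed there than were called in these data, so that these rates need not hold here. Floors of 3 counts cover counting error only. RPKM used effective lengths of transcripts of at least 50 bases. Gene positions and promoters were matched by symbol in RefSeq tables of GRCm38.p6.

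The members, lists and tests were chosen with earlier results of these data known. From each list, up to 2 called genes with the highest and 2 with the lowest fold change per comparison could be named (at least 1 CPM in the highest group), besides ligand, receptor and kinase genes. Of each member, the 2 nearest profiles were named. Alternatives were DESeq2 size factors, DESeq2 1.42.0 Wald tests, no count filter, at least 10 counts in every library, a replicate block, transcript length offsets, the 6 libraries compared only, each library left out in turn, the TPM column and other transcript settings.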

Additional observations from a re-analysis of the deposited data

Results flagged for a closer look

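The effect of 2i differed between the lines for 4 of the 7 members by the edgeR test of the difference itself (3B3-3l minus J1, log2 scale). Klf2 had a difference of 0.63 ± 0.09 (adjusted p = 0.000105), with a fall in J1 and a rise in 3B3-3l. That rise, of 0.18 ± 0.07, did not pass in several fits with 1 library left out, nor with at least 10 counts in every library. For Klf5 the difference was 0.51 ± 0.09 (adjusted p = 0.000495), with a rise in 3B3-3l of 0.65 and a value of 0.13 in J1. For Klf3 it was 0.34 ± 0.07 (adjusted p = 0.002), and for Klf10 -0.25 ± 0.08 (adjusted p = 0.0242). Among all genes tested, 16.3% had a positive and 18.3% a negative difference past the same threshold. The differences of Klf2, Klf3 and Klf5 passed under every alternative run, and that of Klf10 did not pass without 3B3-3l serum replicate 3 or without J1 2i replicate 1. Groups of 3 libraries are too small to test for outlying libraries.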

How the results depend on the processing

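Of 658 recalculations of the 35 fold changes of the members, 618 kept both direction and side of the threshold, 32 no longer passed, 4 newly passed and 4 changed sign. The sign changes were all in values that had not passed: with 1 library left out at a time, Klf6 in the J1 media comparison ranged from -0.0949 to 0.0036 (positive without J1 serum replicate 3), Klf10 there from -0.0777 to 0.0282 (positive without J1 2i replicate 3), Klf10 between the lines in 2i from -0.0611 to 0.0447 (positive without J1 2i replicate 1), and the difference of the 2i effects of Klf4 from -0.0129 to 0.059 (negative without J1 serum replicate 1). The number of members called moved by over 1.5 times in 1 case, from 4 to 2 between the lines in 2i without 3B3-3l 2i replicate 2, and over the fits without a library this number ranged from 2 to 5. The cause was not tested. Over all settings the number ranged from 4 to 7 in the 3B3-3l media comparison and from 4 to 6 between the lines in serum, with 6 in the main fit of each. It ranged from 4 to 5 in the J1 media comparison and from 3 to 4 in the difference. Klf2 in the 3B3-3l media comparison did not pass with at least 10 counts in every library (0.13, adjusted p = 0.0963). Klf6 between the lines in serum did not pass with DESeq2 size factors (0.16, adjusted p = 0.0505), no filter (0.14, adjusted p = 0.101), transcript length offsets (0.17, adjusted p = 0.0593), the 6 libraries compared (0.14, adjusted p = 0.0701) or the replicate block (0.17, adjusted p = 0.0695), which changed no other call. Deviations from the group mean over all genes correlated at -0.118 to 0.062 between same-numbered replicates of different groups, so that the numbers were not taken as pairs. The DESeq2 Wald test changed no call of the members. Of the 28 levels per length, 21 moved by more than 1 SD when the TPM column, which is on another scale, took the place of RPKM. The 20 transcript shares all moved by more than 1 SD when shares of estimated reads took the place of shares per length. As group means of read shares, Klf3-202 held 63.9% in serum and 73.9% in 2i in J1, and 63.0% and 73.0% in 3B3-3l.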

Other observations

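The hormone and TGF-beta pathways known to induce Klf9 and Klf10 were followed as gene lists. Over all genes tested, 33.2% were higher and 32.9% lower in 2i in J1, and 32.7% and 32.7% in 3B3-3l. Of 11 glucocorticoid and thyroid hormone genes, 5 rose and 4 fell in 2i in J1 (median log2 fold change 0.33), and 6 rose and 4 fell in 3B3-3l (median 0.17). The glucocorticoid receptor gene Nr3c1 fell in both lines (-0.36 ± 0.07 and -0.51 ± 0.07), and so did the clock gene Per1 (-1.07 ± 0.06 and -1.09 ± 0.07). Fkbp5 (0.49 ± 0.04 and 0.17 ± 0.04), Sgk1 (0.56 ± 0.04 and 0.85 ± 0.04) and Tsc22d3 (0.33 ± 0.13 and 0.65 ± 0.12) of the list, named after their values were seen, rose in both. Klf9 fell in both, as did Nr3c1, Per1, Rxrb and Hr of the list (Hr -1.95 ± 0.12 and -1.04 ± 0.11). A link of Klf9 to any of these genes was not tested. The thyroid hormone receptor gene Thra rose in both lines, with 13.0 ± 0.42 CPM in serum and 26.2 ± 0.949 in 2i in J1 (1.01 ± 0.07), and 14.1 ± 1.47 and 37.5 ± 1.18 CPM in 3B3-3l (1.42 ± 0.07). Zbtb16, a transcription factor gene, rose in both (2.55 ± 0.22 and 3.44 ± 0.20). Between the lines 1 was higher and 1 lower in serum and 7 higher and 2 lower in 2i, and in the difference of 2i effects 3 were higher and 1 lower.

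Of 12 TGF-beta genes, 3 rose and 4 fell in 2i in J1, and 4 rose and 4 fell in 3B3-3l (medians -0.03 and 0.07). The SMAD corepressor gene Skil fell in both lines, with 164 ± 6.03 CPM in serum and 39.98 ± 2.15 in 2i in J1 (-2.04 ± 0.07), and 179 ± 15.7 and 28.2 ± 2.16 CPM in 3B3-3l (-2.67 ± 0.07), while the receptor gene Tgfbr2 rose in both (0.94 ± 0.15 and 0.91 ± 0.15). The receptor gene Tgfbr1 did not pass in either line (0.06 ± 0.09 and 0.15 ± 0.09). Between the lines 2 were higher and 2 lower in serum and 6 higher and 1 lower in 2i, and in the difference 2 were higher and 2 lower. Of 9 fibroblast markers tested out of 14, 2 rose and 6 fell in 2i in J1 and 1 rose and 6 fell in 3B3-3l, with Col1a1 at -3.10 ± 0.09 and -3.94 ± 0.10. Those that rose were Vim in both lines (1.28 ± 0.06 and 0.54 ± 0.06) and Pdgfrb in J1 (1.62 ± 0.10). Between the lines, the 5 that passed in serum were higher in 3B3-3l, 3 were higher and 2 lower in 2i, and in the difference 1 was higher and 3 lower. Of the 6 mESC markers, 2 rose and 3 fell in J1 and 2 rose and 2 fell in 3B3-3l.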
